A study of Homo sapiens with 4 samples.

Results

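The cyclins, cyclin-dependent kinases (CDKs), CDK inhibitors and E2F-RB genes were examined in RNA-seq of 4 libraries of human lung cancer cells. The question was which parts of the cell cycle engine differ after silencing of circZFR, a circular RNA made from exons of *ZFR*. Members were the mRNA rows named as a cyclin from A to L with a number, a CDK with a number, a CDKN inhibitor with a number or an E2F factor with a number, together with *RB1*, *RBL1* and *RBL2*, and without *CDKN1A* and *CCNG1*. This took 53 of the 40205 genes listed, of which 44 were tested, 4 were listed at 0 in all libraries and 5 had too few reads. The libraries are from cells transfected for 24 h, 2 of them with a negative control siRNA (NC 1 and NC 2) and 2 with an siRNA against circZFR (si-circZFR 1 and si-circZFR 2). The labels give the line as H1299 and the series description as A549. *AKR1B10*, which A549 cells express strongly, was at 1287 to 1710 scaled RPKM in the 4 libraries, and *CDKN2A*, which A549 cells have lost, was listed at 0. These levels are those known of A549 cells, but they do not settle the line, and the cells are called the transfected cells here. No source states whether the 2 libraries of a group came from separate cultures, so p-values measure the spread between these libraries, which may be technical.

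In a dividing cell, D cyclins bind CDK4 and CDK6 and start the phosphorylation of RB1 and its relatives RBL1 and RBL2, the pocket proteins, which then release E2F transcription factors. E cyclins with CDK2 complete this step at entry into S phase, cyclin A acts with CDK2 and CDK1 through S and G2 phase, and B cyclins with CDK1 drive mitosis. INK4 proteins inhibit CDK4 and CDK6, CIP/KIP proteins inhibit CDK complexes more widely, and a further group of CDKs with their own cyclins acts on RNA polymerase II rather than on the cycle.

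The siRNA spans the junction at which the circle is closed. Its sense strand is shown because it is the agent of the comparison, with capitals for the bases that pair with the seed (bases 2 to 8) of the guide strand.
si-circZFR: ccaagcuggccCUUACGUctt
Of its 19 bases before the overhang, the first 9 matched *ZFR* at the end of the circle and the other 10 matched *ZFR* at its beginning, which lie 693 bases apart in the transcript. The gene *ZFR*, circle and linear mRNA together, was at 25.8 and 32.5 scaled RPKM in NC and at 5.21 and 4.61 in si-circZFR. It fell by 2.34 on the log2 scale (FDR = 0.0481 by limma, standard error 0.18). That call was lost when NC 2 or either si-circZFR library was left out. It was also lost without a filter on level and without a trend in the prior variance, where no gene passed. Values per gene do not tell the circle and the linear mRNA apart.

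Libraries held 11040050 to 12816868 reads. Values are RPKM (reads relative to gene length and library depth) scaled between libraries, and a log2FC is the difference of mean log2(scaled RPKM + 1), si-circZFR minus NC, which understates the change of genes at low level. Tests are two-sided moderated tests by limma over 13885 genes with Benjamini-Hochberg FDR. With 2 libraries a group, an exact permutation test of 1 gene could not go below p = 0.333. NC 2 stood apart from NC 1 by gene length. Across the 44 members tested, the difference NC 2 minus NC 1 had a Spearman rho of -0.52 with length, and the log2FC had a rho of 0.31, which was -0.0070 without NC 2. Over all 13885 genes tested these values were -0.34, 0.29 and 0.16, so there leaving out NC 2 did not remove the trend with length. The median absolute difference between replicates was 0.27 (log2) in NC and 0.12 in si-circZFR for the members, and 0.25 and 0.16 over all genes tested. Without NC 2 the log2FC of 8 members turned sign, that of 11 came over 1.5 times nearer to 0 and that of 7 lay over 1.5 times farther from it. Markers of leukocytes (*PTPRC* and *CD3E*) were listed at 0, and *PECAM1* of endothelium had at most 2 reads. *COL1A1* of fibroblasts was low, at 42 to 137 reads and 0.624 to 1.88 scaled RPKM, with groups apart and a log2FC of 0.57 (FDR = 0.215 by limma). The epithelial cadherin *CDH1* was at 11.3 and 8.68 in NC and 21.5 and 21.2 in si-circZFR, with a log2FC of 1.03 (FDR = 0.0825). The part of these markers in the results was not tested.

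None of the 44 members passed FDR under 0.05 by limma, as against 8 of all genes tested (0.0576%). None of 45 passed by limma-voom on reads recovered from the RPKM values, where 3.06% of all genes did. At an unadjusted p under 0.05 there were 8 members by limma (18.2%, against 21.4% of all genes tested) and 9 of 45 by limma-voom (20%, against 23.5%). Of the 8, 5 were lower after silencing (*CCND3*, *CCND1*, *CCNE2*, *CCNB1* and *E2F5*; 11.4% of members against a background of 11.8%) and 3 were higher (*CDK9*, *CDKN2C* and *CCNL1*; 6.82% against 9.51%). Both shares are near those of all genes, so the members as a whole were not set apart by this count. Scaled by library size alone, 1 was lower (2.27%, against 6.94% of all genes) and 4 were higher (9.09%, against 15.4%). Of the 8, *CCNB1*, *CCNE2* and *E2F5* were no longer at that threshold without NC 2. The groups did not overlap in 30 members (68.2%, against 55.9% of all genes). In 20 both si-circZFR libraries lay below both NC libraries (45.5%, against 28.9% of all genes) and in 10 both lay above (22.7%, against 27%). By the RPKM as deposited, 9 lay below (20.5%, against 18.2% of all genes) and 13 above (29.5%, against 39.6%), so the split of the members turned with the scaling as that of all genes shifted. The median log2FC of the members was -0.13, with 27 lower and 17 higher, beside -0.0085 for all genes. With scaling by library size alone the medians were 0.017 and 0.15. In bulk RNA, fewer cells in a phase of the cycle and less mRNA per cell cannot be told apart.

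**Figure D1:**
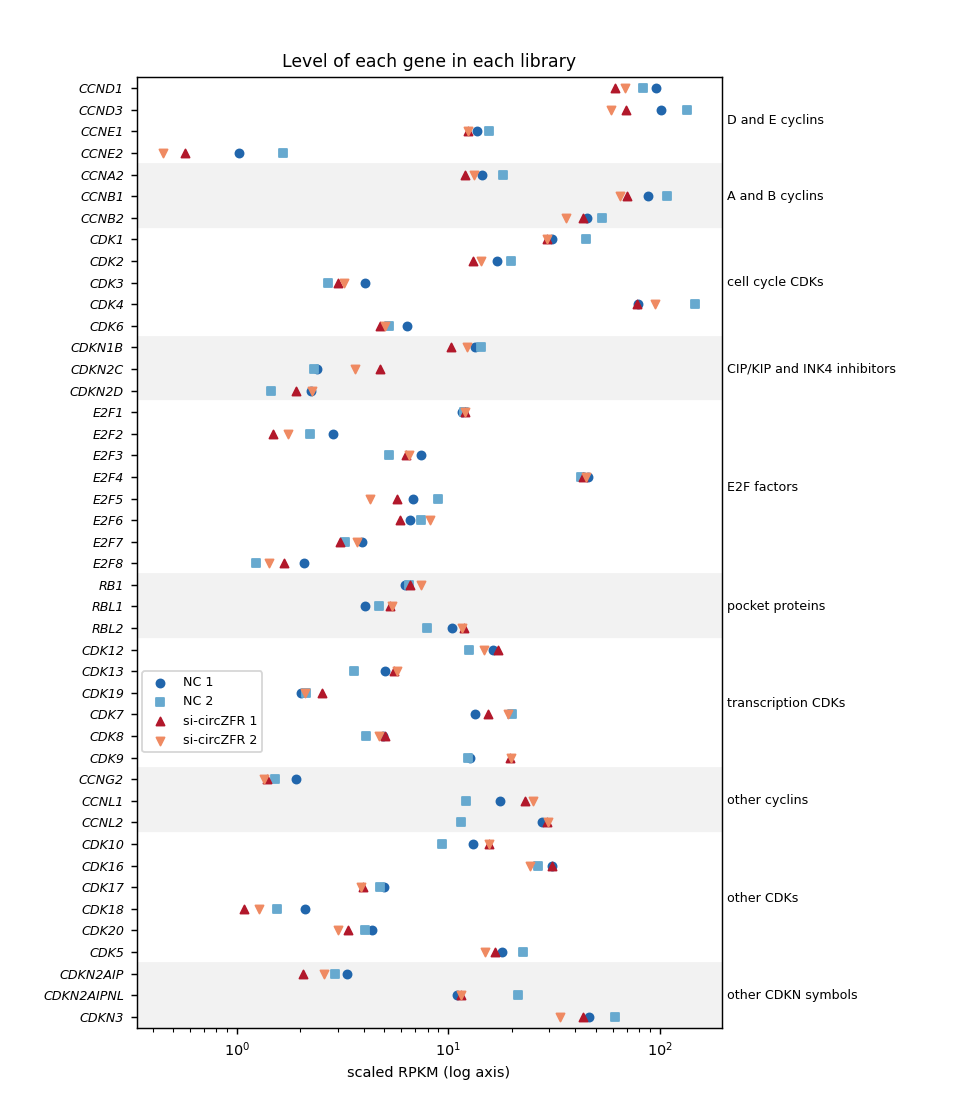
Scaled RPKM (log axis) of the 44 genes tested, 1 row a gene, grouped by role. Each symbol is 1 library. With this scaling, the D, E, A and B cyclins have both si-circZFR symbols to the left of both NC symbols, as have 28.9% of all genes. NC 2 stands far from the other 3 libraries for *CDK4*, *CCNL2* and *CDKN2AIPNL*.

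The cyclins of G1 phase had a median log2FC of -0.54 over 4 genes tested (-0.49 without NC 2, -0.40 scaled by library size alone). In all 4 both si-circZFR libraries lay below both NC libraries, as in 28.9% of all genes, and by the RPKM as deposited this held for *CCND3* and *CCNE2* and in 18.2% of all genes. *CCND3* (chromosome 6, 41934934 to 42050357, GRCh38), a D cyclin, had the lowest log2FC of all members at the pseudocount of 1 (with 0.1, and by limma-voom, *CCNE2* lay lower). It was at 102 (NC 1), 135 (NC 2), 69.7 (si-circZFR 1) and 59.1 (si-circZFR 2) scaled RPKM. The groups did not overlap, and silenced cells had 0.545 times the NC mean, from 1609 to 3395 reads a library. The log2FC of *CCND3* was -0.86 (95% confidence interval -1.40 to -0.31, FDR = 0.126 by limma), and -0.65 without NC 2.

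*CCND1*, the D cyclin most often amplified in cancer, lies on chromosome 11 (69641156 to 69654474). Its scaled RPKM was 96.3 and 83.7 in NC and 61.7 and 68.7 in si-circZFR. The lower NC value stood above the higher si-circZFR value. Its log2FC was -0.46 (interval -0.91 to -0.0026, FDR = 0.232 by limma), and -0.27 when scaled by library size alone. *CCND2*, the third D cyclin, was listed at 0 in all libraries, so D cyclin mRNA came from *CCND3* and *CCND1*. *CCND3* made up 51.3% and 61.7% of it in NC and 53.1% and 46.2% in si-circZFR, and these ranges overlap.

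*CCND1* was the 1 member tested of 44 whose 3′UTR holds CTTACGT, the 7-base match to the seed of the siRNA guide. The same 7 bases are in the 3′UTR of 2.72% of the 10351 tested genes with one (MANE transcripts), and this search was added after the values were seen. The site is shown since it is where the siRNA sequence and a member meet, with the match in capitals, at chr11:69653800-69653806 (GRCh38, plus strand).
*CCND1* 3′UTR: aacaagtgtgtCTTACGTgccaccacggc
It starts at base 2518 of 3192 bases of the 3′UTR. Over all genes the median log2FC was 0.028 with the match and 0.010 without it. A match of letters is a description, and whether the siRNA acted there was not tested.

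Among the E cyclins, which activate CDK2, *CCNE1* carried most of the mRNA. *CCNE1* was at 13.7 and 15.6 in NC and 12.5 and 12.4 scaled RPKM in si-circZFR, with a log2FC of -0.21 (FDR = 0.459 by limma; -0.13 without NC 2). *CCNE2* was at 1.03 and 1.65 in NC and 0.572 and 0.449 in si-circZFR. Its groups were apart, but the counts were small, at 33, 51, 18 and 15 reads. Its log2FC was -0.62 (interval -1.18 to -0.055, FDR = 0.206 by limma), -1.21 with a pseudocount of 0.1 and -0.43 without NC 2 (FDR = 0.399). *CCNE2* took 6.98% and 9.59% of E cyclin RPKM in NC and 4.38% and 3.49% in si-circZFR.

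The cyclins of S phase and mitosis lay the same way, with a median log2FC of -0.34 over 3 genes (-0.19 without NC 2, -0.16 scaled by library size alone). In all 3 both si-circZFR libraries lay below both NC libraries, as in 28.9% of all genes. By the RPKM as deposited this held for *CCNB1* alone and in 18.2% of all genes. *CCNB1* (chromosome 5, 69167135 to 69178245), the cyclin of the mitotic CDK1 complex, was at 88.5 and 108 in NC and 70.5 and 64.9 scaled RPKM in si-circZFR. The silenced cells had 0.688 times the NC mean. The log2FC of *CCNB1* was -0.53 (interval -1.003 to -0.051, FDR = 0.203 by limma), and -0.38 without NC 2. *CCNA2*, the cyclin A of dividing cells, was at 14.5 and 18.2 in NC and 11.99 and 13.3 in si-circZFR. The log2FC of *CCNA2* was -0.34 (FDR = 0.326 by limma; -0.18 without NC 2), and that of *CCNB2* was -0.31 (FDR = 0.39; -0.19 without NC 2). *CCNA1* and *CCNB3*, both known from the germ line, had 0 to 22 reads and were not among the 44 members tested. The filter used for limma-voom kept *CCNB3*, which there had a log2FC of 0.45 (FDR = 0.678 by limma-voom).

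All 5 kinases of the cell cycle had a log2FC below 0, from -0.40 to -0.076, and none had an unadjusted p under 0.05 in the fit as reported. With a correction for gene length, *CDK2* (-0.36, FDR = 0.216 by limma) and *CDK6* (-0.40, FDR = 0.202) came under that threshold. *CDK2* also did without a filter on level (FDR = 0.315 by limma). The log2FC of *CDK3* turned to 0.068 with scaling by library size alone, where the other 4 stayed below 0, and to 0.15 without NC 1. *CDK2*, the partner of cyclins E and A, was at 17.0 and 19.8 in NC and 13.1 and 14.3 in si-circZFR. Its groups did not overlap, with a log2FC of -0.40 (interval -0.81 to 0.0056, FDR = 0.237 by limma). *CDK1*, the mitotic kinase, was at 30.9 and 44.8 in NC and 29.4 and 29.3 in si-circZFR. The log2FC of *CDK1* was -0.33 (FDR = 0.412 by limma) and -0.072 without NC 2.

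*CDK4* and *CDK6* are the partners of the D cyclins. *CDK4* was at 79.2 and 147 in NC and 78.1 and 94.8 in si-circZFR. One NC library lay far above the rest and the other lay between the si-circZFR libraries. The log2FC of *CDK4* was -0.32 (interval -1.12 to 0.47, FDR = 0.586 by limma) and turned to 0.12 without NC 2, so no direction can be given. *CDK6* was at 6.42 and 5.27 in NC and 4.75 and 5.002 in si-circZFR, with a log2FC of -0.21 (FDR = 0.494; -0.34 without NC 2). *CDK4* held 92.5% to 96.5% of the RPKM of this kinase pair in each library. *CDK3*, a little studied kinase of G1, had a log2FC of -0.076 (-0.30 without NC 2).

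The inhibitors of these kinases did not lie 1 way. *CDKN2C* (chromosome 1, 50960745 to 50974634) encodes the INK4 protein p18 and was at 2.39 and 2.32 in NC and 4.76 and 3.63 scaled RPKM in si-circZFR. Both silenced libraries lay above both controls, with 115 and 93 reads against 59 and 55. The log2FC of *CDKN2C* was 0.62 (interval 0.16 to 1.08, FDR = 0.155 by limma), with a ratio of 1.78 to the NC mean, and 0.61 without NC 2. *CDKN2D* (p19) had overlapping groups and a log2FC of 0.13, or -0.069 without NC 2. *CDKN2A* (p16) and *CDKN2B* (p15) were listed at 0, so INK4 mRNA came from *CDKN2C* and *CDKN2D*, with 51.7% and 61.6% from *CDKN2C* in NC and 71.3% and 61.5% in si-circZFR. *CDKN1B*, the CIP/KIP protein p27, was at 13.4 and 14.2 in NC and 10.3 and 12.3 in si-circZFR, a log2FC of -0.27 (FDR = 0.378 by limma). Of the 3 genes that carry a CDKN name for other reasons, *CDKN3*, a phosphatase that acts on CDKs, had a log2FC of -0.47 (FDR = 0.28; -0.28 without NC 2). *CDKN2AIP*, a partner of the ARF protein, had -0.32, and *CDKN2AIPNL* had -0.40, which was 0.046 without NC 2.

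**Figure D2:**
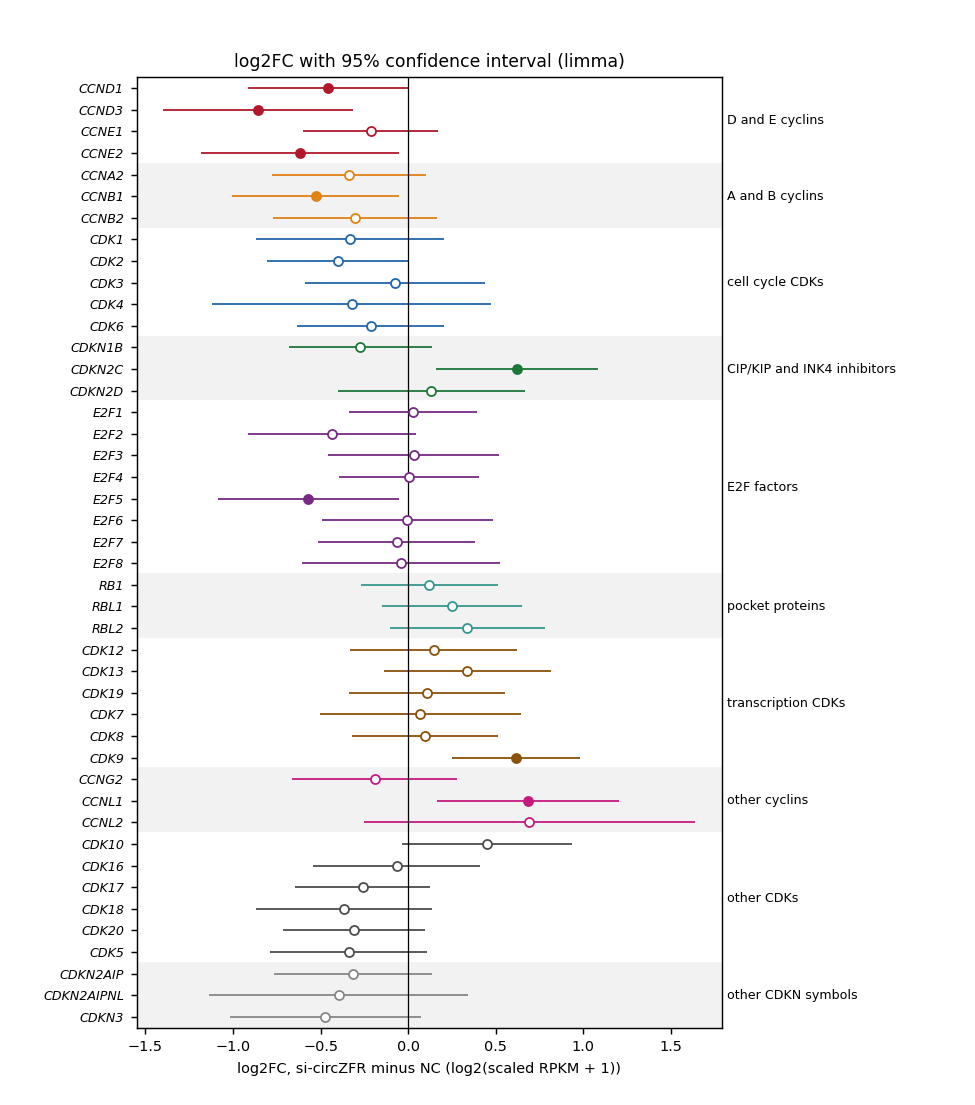
The log2FC (points) with its 95% confidence interval (bars) from limma for the 44 genes tested, by role, with filled points for an unadjusted p under 0.05. The D, E, A and B cyclins and cell cycle kinases lie left of 0 and the pocket proteins and transcription kinases right of 0 (of these, *CDK3* lies right of 0 when scaled by library size alone, *CDK19* left of 0 with a correction for gene length, and *CDK3*, *CDK4*, *CDK7*, *CDK8* and *CDK12* on the other side with a library left out), and 36 of the 44 intervals cross 0.

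In the 3 pocket proteins both si-circZFR libraries lay above both NC libraries, as in 27% of all genes (39.6% as deposited, where all 3 also did). *RB1*, the retinoblastoma protein, was at 6.23 and 6.53 in NC and 6.59 and 7.47 in si-circZFR. The log2FC of *RB1* was 0.12 (interval -0.27 to 0.51, FDR = 0.684 by limma), and 0.033 with a correction for gene length. *RBL1* (p107) had 0.25 (FDR = 0.411), or 0.14 with that correction. *RBL2* (p130), which is most abundant in resting cells, had 0.34 (FDR = 0.328), or 0.16 without NC 2. None passed the test, and all 3 kept a log2FC above 0 in each of the 13 alternatives. Their groups did not overlap, so leaving out a library could not turn these signs. Some other alternatives leave a log2FC as it is.

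Of the E2F factors, all 8 were tested and 7 had no unadjusted p under 0.05 in the fit as reported. *E2F1*, the best known activator of S phase genes, was at 11.6 and 11.9 in NC and 12.04 and 11.999 in si-circZFR. These values differ by little, and the log2FC of *E2F1* was 0.030 (interval -0.34 to 0.40, FDR = 0.923 by limma). *E2F4*, which acts mainly as a repressor with pocket proteins and had the highest RPKM of the family, had a log2FC of 0.0032 (interval -0.40 to 0.40). *E2F5*, its close relative, was at 6.84 and 8.99 in NC and 5.73 and 4.27 in si-circZFR. Its groups did not overlap, from 91 to 177 reads, and its log2FC was -0.57 (interval -1.09 to -0.053, FDR = 0.204 by limma; -0.40 without NC 2). The activator *E2F2* had -0.43 (FDR = 0.266) and *E2F3* had 0.031. By limma-voom *E2F2* had -0.64 (unadjusted p = 0.0322, FDR = 0.172). The repressors *E2F6*, *E2F7* and *E2F8*, which bind no pocket protein, had -0.0059, -0.065 and -0.041. Without NC 2 these were 0.073, -0.17 and -0.27, *E2F3* was at -0.19 and *E2F4* at -0.048.

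E2F factors and the DREAM complex, which holds RBL1 or RBL2 and E2F4 or E2F5, act on promoters through E2F and CHR elements, and several members carry such letters in their own promoters. RefSeq promoters (GRCh38.p14, 250 bases before to 50 after a start) were found for 46 of the 53 members. An E2F motif (TTTCCCGC, TTTCGCGC, TTTGCCGC or TTTGGCGC, either strand) was in 7 members (15.2%), against 3.31% of all 35116 promoters and 6.94% of tested genes with a promoter. A CHR motif (TTTGAA or TTCGAA, either strand) was in 6 members (13.04%), against 16.4% of all promoters and 14.97% of tested genes. The first 4 sequences are of the members with the smallest p that hold a motif, and *E2F1* and *RBL1* were added after the values were seen because both hold 2 E2F motifs close together. Motifs are in capitals, read 5′ to 3′ along the gene.
*CDK10*, chr16:89686601-89686688, plus strand: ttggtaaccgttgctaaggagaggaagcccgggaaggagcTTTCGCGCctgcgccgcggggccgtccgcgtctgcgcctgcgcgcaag
*E2F2*, chr1:23531234-23531315, minus strand: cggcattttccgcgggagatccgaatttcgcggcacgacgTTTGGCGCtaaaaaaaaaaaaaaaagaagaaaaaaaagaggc
*CDKN3*, chr14:54396797-54396882, plus strand, CHR motif reversed: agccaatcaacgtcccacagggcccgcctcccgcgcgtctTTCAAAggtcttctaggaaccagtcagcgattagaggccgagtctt
*RBL2*, chr16:53434484-53434511, plus strand: gcgcttcgccgTTTGAAtggctgcgggc
*E2F1*, chr20:33686386-33686458, minus strand, first motif reversed: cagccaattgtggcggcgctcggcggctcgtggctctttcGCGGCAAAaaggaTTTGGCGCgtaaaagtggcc
*RBL1*, chr20:37095998-37096063, minus strand: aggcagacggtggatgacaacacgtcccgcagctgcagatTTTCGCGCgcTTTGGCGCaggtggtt
The members with these letters did not share a direction. The median log2FC was 0.031 for the 7 tested members with an E2F motif and -0.13 for the 32 without, and -0.14 for the 6 with a CHR motif and -0.067 for the 33 without.

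**Figure D3:**
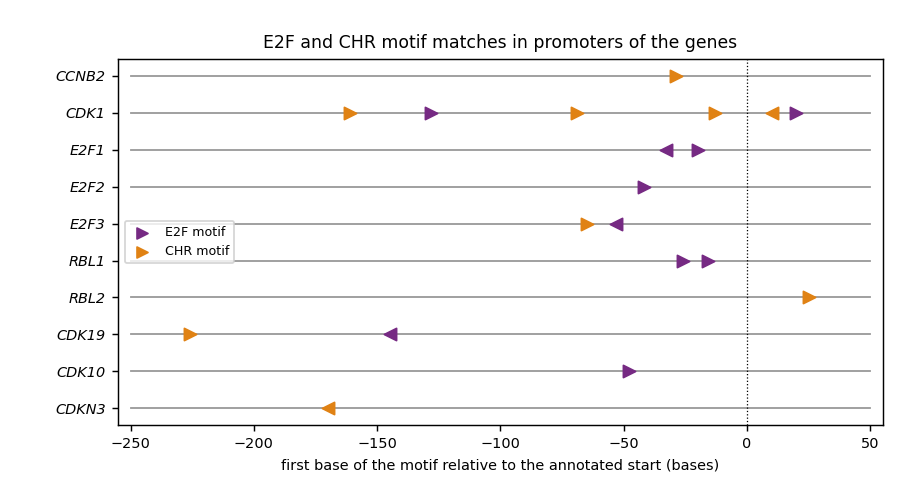
Matches of the E2F motif (purple) and the CHR motif (orange) in the promoters of the members that hold one, by the position of the first base relative to the annotated start, with arrows for the strand. Matches of *CDK1*, which has more than 1 annotated start, are drawn relative to each start. In *E2F1*, *E2F2*, *E2F3*, *RBL1* and *CDK10* an E2F motif lies within 60 bases before the start.

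Kinases of transcription were read apart from those of the cycle. All 6 transcription kinases had a log2FC above 0, from 0.069 to 0.62 with a median of 0.13. In 2 of them both si-circZFR libraries lay above both NC libraries, as in 27% of all genes. By the RPKM as deposited this held for 5 of them and in 39.6% of all genes. Only *CDK9* and *CDK13* stayed above 0 in each of the 13 alternatives. As their groups did not overlap, leaving out a library could not turn their sign. Without NC 2, *CDK12* and *CDK8* were at -0.035 and -0.015. *CDK7* was at -0.20 without NC 1 and -0.077 without si-circZFR 2, and *CDK19* was at -0.0076 with the length correction. *CDK9* (chromosome 9, 127785679 to 127790792), the kinase of the elongation factor P-TEFb, had the smallest p of all members. It was at 12.7 and 12.4 in NC and 19.5 and 19.9 scaled RPKM in si-circZFR. The replicates lay close together and the groups lay apart, with 1.57 times the NC mean after silencing. The log2FC of *CDK9* was 0.62 (interval 0.25 to 0.98, FDR = 0.118 by limma) and 0.60 without NC 2. *CDK13*, a kinase of elongation, had a log2FC of 0.34 (FDR = 0.356; 0.14 without NC 2) and its relative *CDK12* had 0.14. The Mediator kinases *CDK8* and *CDK19* had 0.095 and 0.11, and *CDK7* of TFIIH had 0.069 (0.34 without NC 2).

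The L cyclins are linked to pre-mRNA splicing. *CCNL1* (chromosome 3, 157146508 to 157160760) was at 17.5 and 12.2 in NC and 23.2 and 25.1 in si-circZFR. Both silenced libraries lay above both controls, with a log2FC of 0.68 (interval 0.17 to 1.20, FDR = 0.160 by limma), or 0.44 without NC 2. *CCNL2* was at 27.7 and 11.5 in NC and 29.4 and 29.7 in si-circZFR. NC 2 alone stood low, so the log2FC of *CCNL2*, 0.69 (FDR = 0.344), was 0.090 without it. *CCNG2*, a cyclin that slows the cycle, had -0.19 (-0.30 without NC 2).

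Of the other CDKs, *CDK10* had a log2FC of 0.45 (FDR = 0.26; 0.23 without NC 2) and the other 5 tested lay from -0.37 to -0.067, none with an unadjusted p under 0.05. They were *CDK5*, known for its role in neurons (-0.34, or -0.18 without NC 2), *CDK16* (-0.067, or -0.18 without NC 2), *CDK17*, *CDK18* and *CDK20*. *CDK14* and *CDK15* were not tested, with few reads or none, and likewise *CCNI2* and *CDKN1C* (at most 22 reads in a library for any member not tested).

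**Figure D4:**
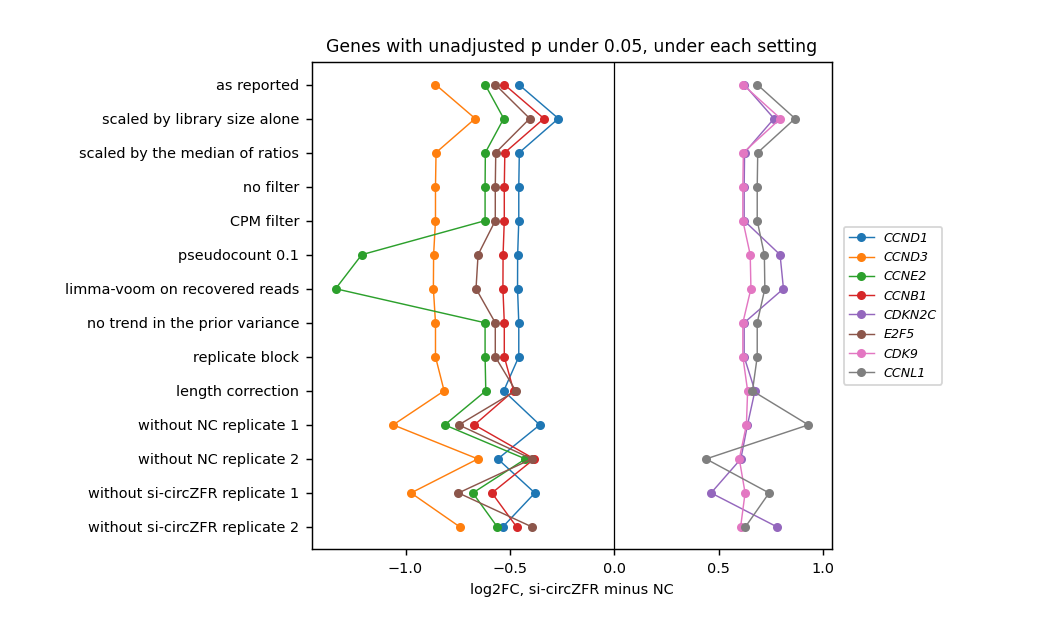
The log2FC of the 8 members with an unadjusted p under 0.05 as reported and under each of 13 alternatives. All 8 lie on the same side of 0 under every setting, and *CCNE2* moves most, from -0.43 to -1.33. The filters, the prior variance and the replicate block leave a log2FC as it is. With groups that do not overlap, leaving out a library cannot turn its sign.

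The cyclins that the name rule did not take include the partners of the transcription kinases, and 3 of 10 had an unadjusted p under 0.05, all lower (30%, against 11.8% of all genes). *CCNC*, the Mediator cyclin that binds CDK8 and CDK19, was at 15.2 and 20.9 in NC and 6.86 and 8.33 in si-circZFR. The groups lay far apart, and the log2FC of *CCNC* was -1.14 (FDR = 0.0829 by limma, standard error 0.21), beside the values near 0 of its kinases. *CCNH*, which with CDK7 activates other CDKs, had -0.55 (FDR = 0.179), and *CCNY*, a partner of CDK14 and CDK16, had -0.74 (FDR = 0.112). The P-TEFb cyclins *CCNT1* and *CCNT2* had -0.086 and 0.16, beside 0.62 of *CDK9*.

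Regulators and outputs of the members were read from 5 further lists, in which no gene passed FDR under 0.05. Of 20 E2F target genes of S phase, 5 were lower at an unadjusted p under 0.05 (25%, against 11.8% of all genes) and none was higher (against 9.51%), with a median log2FC of -0.20 (-0.084 without NC 2). They included *MCM5*, *MCM7* and *MCM2* of the replicative helicase, with -0.71 (FDR = 0.125), -0.53 (FDR = 0.194) and -0.47 (FDR = 0.215). Of 12 genes of G2 and M phase, 2 were lower (16.7%, near the 11.8% of all genes) and none higher, with a median of -0.36 (-0.27 without NC 2). These were *CDCA8* of the chromosomal passenger complex, with -0.52 (FDR = 0.169), and *TOP2A*, a topoisomerase, with -0.47 (FDR = 0.219). The mitotic kinase *AURKA* came next, with -0.49 (FDR = 0.24).

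Of 15 genes of the SCF and APC/C ligases, which mark cyclins and inhibitors for degradation, 3 were lower (20%, against 11.8% of all genes) and 1 was higher (6.67%, against 9.51%) at an unadjusted p under 0.05, with a median log2FC of -0.25 (-0.14 without NC 2). *UBE2S* and *UBE2C*, the conjugating enzymes of APC/C, had -1.02 (FDR = 0.151) and -0.81 (FDR = 0.141). *FBXW7*, the SCF subunit that recognises cyclin E, was at 2.19 and 2.05 in NC and 3.01 and 4.16 in si-circZFR, a log2FC of 0.55 (FDR = 0.2). *WEE1*, which holds CDK1 inactive, had -0.52 (FDR = 0.2), the 1 gene of 8 CDK switches and adaptors at that threshold, and *FOXM1*, an activator of G2/M genes, had -0.51 (FDR = 0.185), the 1 of 9 DP partners and DREAM or MuvB genes (12.5% and 11.1% of these lists, near the share of all genes). Next by p were *CDC25B*, a phosphatase that activates CDKs, with 0.44 (FDR = 0.255), and the CDK adaptor *CKS2*, with -0.74 (FDR = 0.31; -0.18 without NC 2), among the switches, and *LIN54* and *MYBL2* of the MuvB complexes, with -0.33 (FDR = 0.332) and -0.26 (FDR = 0.409). The median of the switches was -0.20 and turned to 0.079 without NC 2.

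**Figure D5:**
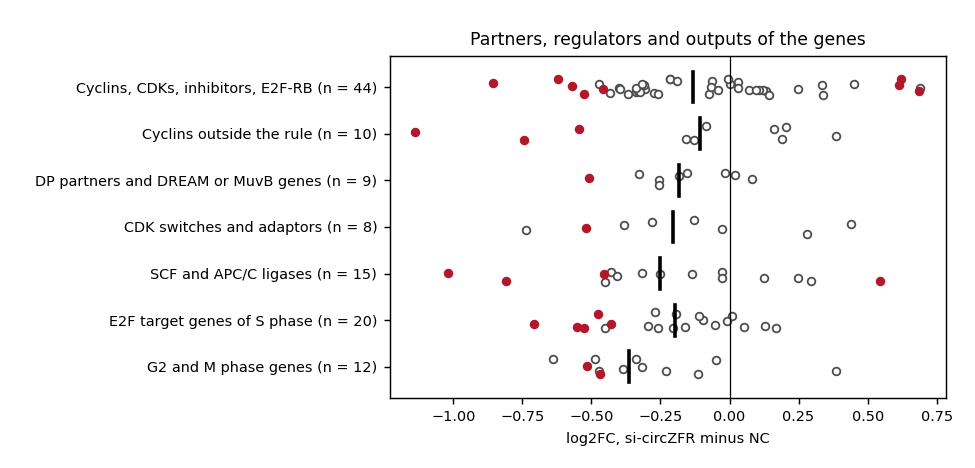
The log2FC of the members and of 6 lists of their partners, regulators and outputs, 1 point a gene, with red for an unadjusted p under 0.05 and a bar at the median. The medians lie from -0.36 for G2 and M phase genes to -0.11 for the cyclins that the name rule did not take.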

How the data were processed

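The authors prepared Ion Proton libraries from total RNA and deposited 1 RPKM value per gene and library. By their methods, the authors aligned reads to hg38, removed batch effects with SVA and tested with edgeR, while the labels give GRCh37. SVA was not used here, so counts of genes passing are not those of the authors' procedure. The deposited RPKM values showed no scaling between libraries. Members and lists were chosen with earlier results of these data known. Libraries were brought to one scale with TMM factors (trims of 30% for ratios and 5% for mean level, no weights), and log2(scaled RPKM + 1) was fitted in limma 3.58.1 (R 4.3.3) with a trended prior variance, group only, for genes that reached an RPKM of 1 in 2 or more libraries. A gene passed at FDR under 0.05. The test planned for counts was not used because the unit is RPKM. Whole reads (tolerance 0.02) were recovered for 24271 of 24289 genes above 0 (99.9%) by finding the gene length that makes all libraries whole, from library totals set by precursor miRNAs. The summed reads came to 99.4% to 99.6% of the totals. Lengths came back slightly over the MANE transcript (median ratio 0.991), and 513 lengths were raised to a multiple. These reads gave depth and limma-voom, where genes above 1 CPM in 2 libraries were used (14753 genes). Per-library values are given for members with an unadjusted p under 0.05 and for 12 core genes chosen whatever their values, and the 3 genes with the smallest p are named for each list. Per-library values of *CCNL2*, *CCNC*, *FBXW7* and *CDH1* were added after they were seen. The overlap of reads among related genes, and the strand used in counting, are not given in the sources used here. Intervals cover 95%. Alternatives are listed in the closing section. The procedure was tested on simulated data. Positions are from GENCODE 44 (GRCh38), not from the deposited files, and promoters are from RefSeq. Protein sequences and splicing were not analysed here.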

Additional observations from a re-analysis of the deposited data

How the results depend on the processing

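No member passed FDR under 0.05 under any alternative fitted to all 4 libraries. Without NC 1, the log2FC of *CCND3* (-1.06), *CCNL1* (0.93), *CCNL2* (1.29) and *CDKN2AIPNL* (-0.84), among others, lay farther from 0 than with it. There the 1 remaining control library was NC 2, and it is assumed to vary like the other group. All 8 members at an unadjusted p under 0.05 kept their sign in each alternative, which was in part fixed in advance. The filters, the prior variance and the replicate block do not change a log2FC. The groups of all 8 did not overlap, so leaving out a library could not turn a sign. Only the scalings, the pseudocount, limma-voom and the length correction could have turned one. The log2FC of *CDK4* ran from -0.76 without NC 1 to 0.12 without NC 2, where its sign reversed. The 8 members at that threshold became 5 when scaled by library size alone, and 1 to 18 with a library left out (18 without NC 1, 6 without NC 2, 2 without si-circZFR 1 and 1 without si-circZFR 2). The share of all genes at that threshold also rose without NC 1 and fell without each other library, so these shifts were not particular to the members. With a correction for gene length 11 members were at that threshold by limma (25%, against 21.5% of all genes). Of these, 8 were lower (18.2%, against 11%) and 3 were higher (6.82%, against 10.5%). The median log2FC of all 44 members tested moved to 0.017 when scaled by library size alone and was -0.18 to -0.089 with a library left out. Over all genes, the 8 at FDR under 0.05 became 0 without a filter, 152 with the CPM filter, 2 with a pseudocount of 0.1, 451 with limma-voom, 0 with no trend in the prior variance, 15 with a correction for gene length and 0 to 1125 with a library left out. With the replicate number as a block, 17 genes passed and no member did. There 7 members had an unadjusted p under 0.05 (15.9%, against 22.1% of all genes). The replicate deviations of the groups correlated at 0.070 across genes, so the numbers give no sign of pairing. With 2 libraries a group, a member that misses the threshold is not shown to be the same in both groups. Low members such as *CCNE2* are also limited by depth, at 15 to 51 reads.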

Other observations

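The order of the members by mean scaled RPKM showed which genes of each class had the highest mRNA level in the transfected cells. In NC, *CCND3* (118 ± 23.5, SD, n = 2) and *CDK4* (113 ± 47.9) led, followed by *CCNB1* (98.4 ± 13.9) and *CCND1* (90.0 ± 8.95), which do not differ beyond their spread. In si-circZFR, *CDK4* (86.5 ± 11.8) led, and *CCNB1* (67.7 ± 3.996), *CCND1* (65.2 ± 4.99) and *CCND3* (64.4 ± 7.499) followed within their spread. At the low end, *CCNE2* was last of the 44 in both groups, at 1.34 ± 0.441 and 0.510 ± 0.0871.

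In 36 of the 44 members the SD of the NC libraries was above that of the si-circZFR libraries. A wider spread in NC was not particular to the members. Over all genes tested, the median absolute difference between replicates was 0.25 (log2) in NC and 0.16 in si-circZFR. The widest differences between NC 2 and NC 1 were those of *CCNL2* (-1.20 on the log2 scale), *CDKN2AIPNL* (0.89) and *CDK4* (0.88), while the same 3 genes differed by 0.015, 0.0054 and 0.28 between the si-circZFR libraries.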
